A study of Mus musculus with 16 samples.

Results

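Neat1, Malat1, Gas5, Snhg1, Snhg5, Snhg8, Snhg12, Mir17hg and Mir155hg are 9 genes whose RNA acts without being translated or serves as the precursor of smaller RNAs. They were chosen by gene symbol from the 55536 annotated genes of the count table, and all 9 were among the 16650 genes that passed the filter on low counts. The libraries came from CD8+ T cells of OT-I mice, whose transgenic T cell receptor recognises the ovalbumin peptide SIINFEKL. The cells had been electroporated with Cas9 and either a control guide RNA (Control gRNA, 8 libraries) or a guide RNA against Tardbp (Tardbp gRNA, 8 libraries), and then transferred into C57BL/6J mice. All 16 libraries came from recipients given the peptide together with agonist antibodies to OX40 and 41BB, and all were labelled as collected after 4 days, while the study's methods give a shorter time. The targeted cells were a mixed population rather than a clone, and the strain label is the same in both groups; no age is given in the labels. The study's text says that the cells came from 8 separate recipient mice and were stimulated before sequencing, while the labels do not tie a library to a mouse. The p-values thus measure the spread between libraries, and how many donor animals or electroporations lie behind them is not given in the sources used here.

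The product of Tardbp is TDP-43, a mostly nuclear protein that binds RNA, prefers UG-rich sequence and acts in splicing and 3' end choice. Neat1 and Malat1 are nuclear RNAs transcribed from neighbouring genes. The long isoform of Neat1 is the scaffold of paraspeckles, nuclear bodies built with proteins such as NONO and SFPQ, while Malat1 gathers at nuclear speckles, which hold splicing factors. Gas5 and the Snhg genes carry small nucleolar RNAs (snoRNAs) in their introns, which guide chemical modification of ribosomal RNA, and their spliced RNAs belong to the 5'TOP class, in which a pyrimidine tract at the start couples the RNA to translation and nutrient signalling. Mir17hg and Mir155hg are the primary transcripts of the miR-17 to miR-92a cluster and of miR-155, microRNAs known for promoting expansion and effector function of activated lymphocytes.

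The 7 mature microRNAs below are shown because they are what the 2 microRNA hosts are known for, and the capitals mark the seed (bases 2 to 8), which pairs with target RNAs. All 7 were taken from RefSeq (GRCm38.p6). The first 6 lie in Mir17hg on the plus strand of chromosome 14, between 115043684 and 115044496, and the last in Mir155hg on the plus strand of chromosome 16, at 84714143 to 84714165. The seed AAAGUGC is shared by miR-17-5p and miR-20a-5p, and the seed GUGCAAA by miR-19a-3p and miR-19b-3p.
miR-17-5p: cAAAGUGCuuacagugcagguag
miR-18a-5p: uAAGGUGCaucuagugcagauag
miR-19a-3p: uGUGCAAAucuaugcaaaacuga
miR-20a-5p: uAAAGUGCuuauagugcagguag
miR-19b-3p: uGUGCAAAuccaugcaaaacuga
miR-92a-3p: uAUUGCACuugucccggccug
miR-155-5p: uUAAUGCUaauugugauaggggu

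The starts of the 5 snoRNA hosts are shown because the pyrimidine tract of 5'TOP RNAs lies at the start. Each line is 36 bases of the RefSeq promoter table, 18 before and 18 from the annotated start, and the capitals mark the longest run of C and T that touches the 10 bases on either side of that start. The runs were 9 bases long in Snhg12 and Snhg1, 7 in Snhg5 and Snhg8 and 6 in Gas5. Of all 32851 promoters in the table, 9.55% held a run of at least 9 bases in that place, 19.7% a run of at least 7 and 29.2% a run of at least 6. A further RefSeq start of Gas5, at 161034601, held a run of 3. Counted from the annotated start, the marked runs began at -1 in Gas5 and Snhg8, -3 in Snhg12, 4 in Snhg1 and 7 in Snhg5. In Snhg1 and Snhg5 the run thus does not reach the annotated start. By the splicing values described below, most starts of Gas5 and Snhg12 lay outside the stretch that begins at the annotated start. In Control gRNA the Gas5 stretch from 161035067 to 161035162 had a fraction of 0.912, and the stretch from 161035166 had 0.0634.
Gas5: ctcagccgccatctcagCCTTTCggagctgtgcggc
Snhg1: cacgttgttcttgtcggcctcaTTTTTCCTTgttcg
Snhg5: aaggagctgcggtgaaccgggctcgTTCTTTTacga
Snhg8: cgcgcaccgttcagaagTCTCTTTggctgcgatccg
Snhg12: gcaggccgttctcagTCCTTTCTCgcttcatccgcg

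The libraries held 56016533 to 94801105 estimated counts in annotated genes. Tardbp itself spanned 171.8 to 206.9 CPM (a gene's counts relative to the TMM-scaled library total) among Control libraries and 110.4 to 147.2 CPM among Tardbp libraries, a log2 fold change of -0.51 (SE 0.056; adjusted p 8.07e-07 by edgeR's quasi-likelihood test), so the targeted gene was lower in every library labelled Tardbp gRNA than in every Control library. These values are for RNA, and the study's immunoblot reported no Tardbp protein in cells given this guide. Among all tested genes, 46.7% were called at an adjusted p under 0.05, 23.5% as higher and 23.3% as lower in Tardbp gRNA. Of all tested genes, 16.9% had no overlap between the groups. The summed CD8 T cell markers lay between 3410 and 4270 CPM in Control libraries and between 5210 and 6690 CPM in Tardbp libraries, and 6 of 6 were called higher. Red cell precursor markers (4 of 4 tested called higher, of 6 listed, none at 0 in every library) summed to 0.442 to 17.4 CPM against 9.02 to 181 CPM. Myeloid markers (2 of 6 called higher by edgeR) summed to 25.5 to 45.7 against 33.1 to 95.8 CPM. DESeq2 called 5 of these 6, and 5 had an unadjusted p under 0.05 by edgeR. Itgam went the other way from the rest of the myeloid list (log2 fold change -0.57, edgeR adjusted p 0.0671). Of the 4 tested B cell markers 0 were called by edgeR or DESeq2, with 1 at an unadjusted p under 0.05, and their sum was 6.85 to 13.1 against 7.27 to 18.7 CPM. Of the 4 CD4 T cell markers 0 were called by either tool, with 0 at an unadjusted p under 0.05, and their sum was 4.39 to 20.7 against 6.14 to 15.6 CPM. The recorded RNA concentration before dilution, which has no unit, ran from 34.9 to 197.1 for Control libraries and from 10.1 to 24 for Tardbp libraries. The part of these differences in the results below was not tested, and in bulk RNA fewer cells of a type cannot be told apart from less RNA per cell.

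Per unit of length, Gas5 was the most abundant member. In Control gRNA its level was 383 ± 29.3 TPM (counts per base of transcript, scaled to a fixed total in each library and summed over a gene's transcripts; SD, n = 8). Malat1 followed at 111 ± 23.6 TPM, then Snhg1 at 54.1 ± 6.27, Snhg5 at 53.7 ± 4.88 and Snhg8 at 31.2 ± 3.83 TPM. The lower levels were those of Mir155hg (7.92 ± 3.43 TPM), Snhg12 (7.4 ± 1.1), Neat1 (2.42 ± 1.26) and Mir17hg (1.83 ± 0.274 TPM). In this order, the libraries of Snhg1 and Snhg5, of Mir155hg and Snhg12, and of Neat1 and Mir17hg overlapped, and each other pair of neighbours was separate in all 8 Control libraries. The Neat1 level depends on the assignment of 0.972 of its counts to its long transcript. The splicing values given below place nearly all its 3' ends at the proximal site, so its place in this order is uncertain. In Tardbp gRNA, Malat1 reached 257 ± 58.8 TPM and Gas5 388 ± 28.0 TPM.

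Malat1 rose, and it was the only 1 of the 9 members called at the level of the gene. Of all tested genes 46.7% were called, and of the other tested lncRNA genes of the annotation 35.8%. Malat1 also was the only member whose groups did not overlap, against 16.9% of tested genes. Together the members held 0.0738% ± 0.0104 of all counts in Control gRNA and 0.147% ± 0.029 in Tardbp gRNA (SD, n = 8). Without Malat1 the shares were 0.0279% ± 0.00207 and 0.0307% ± 0.00316, and their ranges overlapped.

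**Figure D1:**
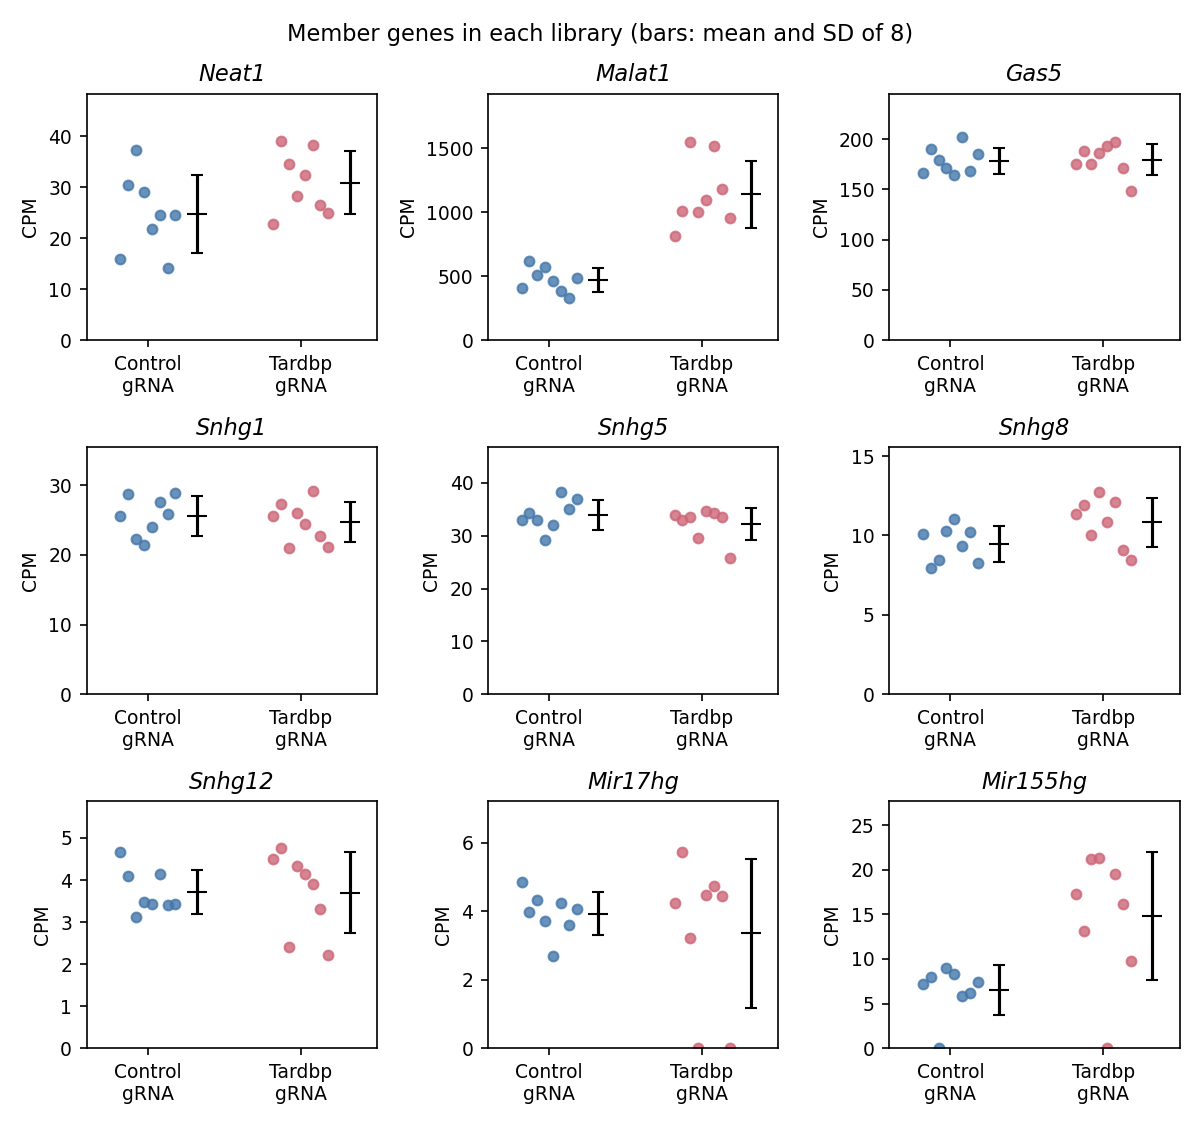
CPM of the 9 members in each library, with Control gRNA in blue and Tardbp gRNA in red, a separate vertical axis from 0 for each gene, and bars for the mean and SD of 8 libraries. The Malat1 points separate (332.8 to 615.1 against 816.4 to 1544 CPM), those of the 5 snoRNA hosts overlap, and points at 0 appear only for Mir17hg and Mir155hg.

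Malat1 (ENSMUSG00000092341.3, minus strand of chromosome 19, 5795690 to 5802672, GRCm38) had a lowest value of 332.8, a median of 472.4 and a highest value of 615.1 CPM in Control gRNA. In Tardbp gRNA the lowest value was 816.4, the median 1052 and the highest 1544 CPM. Every Tardbp library thus lay above every Control library. The gene Gm37376 lies on the opposite strand within Malat1, and libraries without strand cannot separate the pair. The means were 470.1 ± 95.7 and 1139 ± 262 CPM, a log2 fold change of 1.28 (SE 0.14; 95% interval 0.98 to 1.57; adjusted p 8.96e-07), or 2.42-fold on the linear scale (1.98 to 2.97). Of all tested genes, 3.58% had a higher log2 fold change. The median log2 fold change was 0.046 over all tested genes and 0.52 over the other tested lncRNA genes of the annotation. Of the 328 other genes with at least the mean CPM of Malat1 in Control gRNA, 0 had a higher log2 fold change. Within the libraries numbered 1 to 3 and 4 to 8 the log2 fold change of Malat1 was 1.10 (adjusted p 0.0286) and 1.36 (adjusted p 2.48e-05). When RNA concentration (log2) entered the fit, it was 1.16 (adjusted p 0.0153). The concentrations do not overlap between the groups, so a fit with this covariate cannot separate concentration from guide.

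Neat1 (ENSMUSG00000092274.3, minus strand of chromosome 19, 5824708 to 5845478) lies 22035 bases from Malat1. Its values ran from 14.09 through a median of 24.56 to 37.27 CPM over Control libraries and from 22.83 through 30.33 to 39.07 CPM in Tardbp gRNA. The groups overlapped widely, with 2 of 8 Tardbp libraries above the highest Control library. The log2 fold change was 0.32 (SE 0.17; 95% interval -0.042 to 0.69; adjusted p 0.139) and did not pass the test, though the interval holds rises of up to 60.8%. Without the Control gRNA library numbered 3, which had the highest Control value, it was 0.43 with an adjusted p of 0.0414, and with the RNA concentration as a covariate it was -0.47 with an adjusted p of 0.325.

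**Figure D2:**
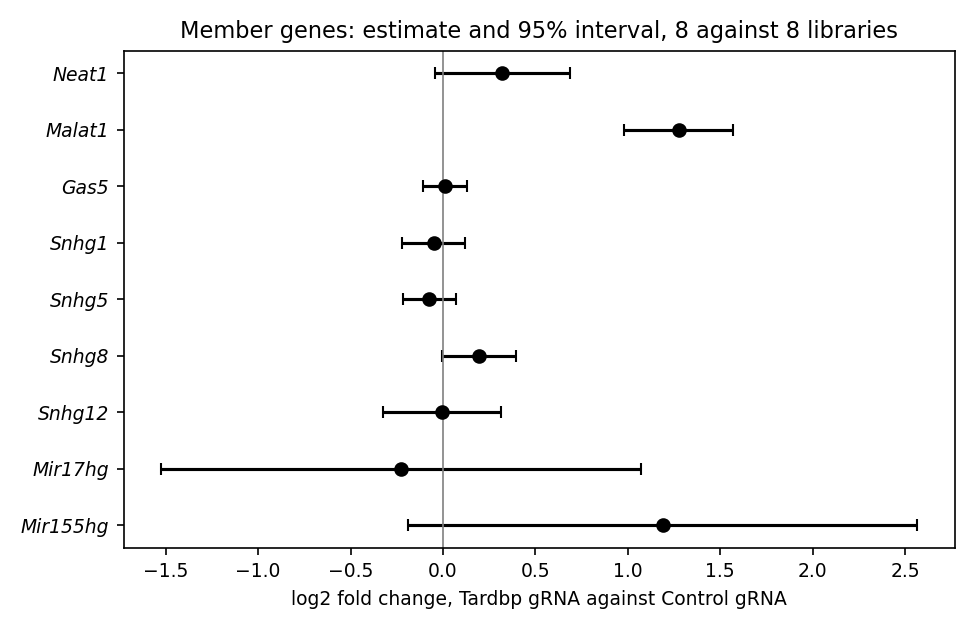
Log2 fold change of each member gene, Tardbp gRNA against Control gRNA, as a point with its 95% interval from edgeR over 8 against 8 libraries. The interval of Malat1 (0.98 to 1.57) lies above 0, those of Gas5, Snhg1, Snhg5 and Snhg12 lie around 0, and those of the 2 microRNA hosts are the widest.

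For both nuclear RNAs the isoforms were examined next. Malat1-201, the unspliced transcript of 6983 bases, went from 477.9 ± 90.2 to 1123 ± 237 CPM (log2 fold change 1.23, SE 0.14, edgeR adjusted p 1.36e-05), again without overlap. Neat1-201, the unspliced long transcript of 20771 bases, held a share of 0.972 ± 0.052 of the gene's counts in Control gRNA and 0.928 ± 0.052 in Tardbp gRNA (SD, n = 8; limma adjusted p 0.419). The short Neat1-202, of 3004 bases, was listed at 0 in 6 of 8 Control and 2 of 8 Tardbp libraries, and its highest value was 3.52 CPM in Control gRNA and 4.27 CPM in Tardbp gRNA. The counts of Neat1-201 and Neat1-202 were split by the authors' assembler over shared sequence.

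The splicing table gives Psi, the fraction of a gene's transcripts that use a node (a stretch of exon, intron, start or 3' end), as 1 value per group, so differences in Psi have no replicate error. For Neat1 it placed nearly all 3' ends at the proximal site. For the proximal end (5842307 to 5843680) Psi was 0.983 with the control guide and 0.975 with the Tardbp guide, and the distal stretch of the long isoform (5824708 to 5842306) had 0.0169 and 0.0251. The libraries were primed from poly(A) tails, per the kit in the labels, and the mature 3' ends of Malat1 and of long Neat1 are known to lack such tails, which bears on how fully both RNAs are counted.

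The proximal 3' end of Neat1 is shown as its last 60 bases (chr19:5842307-5842366, GRCm38, minus strand), with the polyadenylation signal AATAAA in capitals. The longest runs of TG in Neat1-201 and Malat1-201 are shown as well, since TDP-43 prefers UG repeats, with 12 bases on either side and the run in capitals. The Neat1 run is 24 bases long at chr19:5826027-5826050, in the part that only the long isoform holds, while the Malat1 run is 6 bases long at chr19:5799708-5799713. Counting overlapping matches to TGTGTG on the transcribed strand, Neat1-201 held 48 (2.31 per kb) and Malat1-201 held 3 (0.43 per kb). The median of 4230 annotated noncoding transcripts of at least 2000 bases was 0.496 per kb, and 9.81% of them reached the density of Neat1-201 and 59.7% that of Malat1-201. These matches describe the sequence only.
Neat1 proximal end: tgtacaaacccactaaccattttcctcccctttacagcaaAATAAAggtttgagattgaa
Neat1 TG run: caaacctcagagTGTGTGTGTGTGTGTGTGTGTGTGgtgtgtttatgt
Malat1 TG run: tatagattgtagTGTGTGgttctcttttga

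Neat1 and Malat1 were also compared library by library within each group, as were Gas5 and Snhg1, which makes 4 relations with p-values from exact two-sided permutation over pairings. In Control gRNA, log2 CPM of Neat1 and Malat1 had Pearson's r of 0.79 (n = 8; exact p 0.0201, adjusted 0.0402) and Spearman's rho of 0.857 (exact p 0.0107, adjusted 0.0428). In Tardbp gRNA, r was 0.664 (n = 8; exact p 0.0791, adjusted 0.105) and rho 0.643 (exact p 0.0962, adjusted 0.128). Once the 2 libraries at the greatest distance from the Neat1 median were left out, r was 0.536 in Control gRNA and 0.831 in Tardbp gRNA, so the Control relation rests in part on those libraries. For Gas5 and Snhg1, r was 0.571 in Control gRNA (n = 8; exact p 0.14, adjusted 0.14) and 0.773 in Tardbp gRNA (n = 8; exact p 0.0187, adjusted 0.0402), with rho of 0.548 (exact p 0.171, adjusted 0.171) and 0.786 (exact p 0.0279, adjusted 0.0558). Once the 2 at the greatest distance from the Gas5 median were left out, r was 0.293 and 0.593. The libraries numbered 1 to 3 and 4 to 8 are too few within a group for a value in each.

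Over all 16 libraries, after centring each group on its mean, the genes most like Malat1 were Gm49396 (r 0.89), Gm48720 (0.882) and Utrn (0.872), which encodes utrophin. The genes most like Neat1 were AC154912.1 (r 0.914), 6720464F23Rik (0.908) and Gm43813 (0.907), and those most like Gas5 were Gm6166 (0.819), Cd300lf (0.809) and A330023F24Rik (0.809). Each was the highest among all tested genes over libraries that share their depth and preparation, and no p is given.

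Of the 5 snoRNA hosts, 0 passed the edgeR test or the DESeq2 test at the level of the gene, and 0 had an unadjusted p under 0.05. Gas5 (ENSMUSG00000053332.13, plus strand of chromosome 1, 161034422 to 161038539) carries 10 snoRNA genes in its introns and is named for its accumulation in growth-arrested cells. It ranged from 164.6 through a median of 174.9 to 201.8 CPM over Control libraries and from 148.7 through 180.6 to 196.8 CPM in Tardbp gRNA. The log2 fold change was 0.0086 (SE 0.057; 95% interval -0.11 to 0.13), so changes beyond -7.36% and 9.23% lay outside the interval.

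The other 4 hosts overlapped in the same way. Snhg1 (ENSMUSG00000108414.1, chromosome 19, 8723475 to 8726443), with 8 snoRNA genes, had 25.6 ± 2.83 and 24.7 ± 2.91 CPM, a log2 fold change of -0.05 (SE 0.081, 95% interval -0.22 to 0.12). Snhg5 (ENSMUSG00000097195.9, chromosome 9, 88521050 to 88522929), with 2 snoRNA genes, had 34.0 ± 2.88 and 32.2 ± 3.09 CPM, a log2 fold change of -0.075 (SE 0.068, 95% interval -0.22 to 0.069). Snhg8 (ENSMUSG00000104960.1, chromosome 3, 123507552 to 123508404), with 1 snoRNA gene, had 9.45 ± 1.12 and 10.8 ± 1.52 CPM, and 4 of 8 Tardbp libraries exceeded the highest Control library. Its log2 fold change of 0.20 (SE 0.096, 95% interval -0.0057 to 0.40) had an adjusted p of 0.104. Snhg12 (ENSMUSG00000086290.9, chromosome 4, 132308623 to 132311024), with 5 snoRNA genes, had 3.72 ± 0.52 and 3.70 ± 0.954 CPM and the widest interval of the 5 hosts, from -0.33 to 0.31.

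The snoRNAs themselves were not measurable in these files. Of the 26 snoRNA genes inside the 5 hosts, 17 were listed at a count of 1 in each of the 16 libraries, the highest count was 4, and none passed the filter. The 7 microRNA genes inside the 2 microRNA hosts reached counts of 2 at most and did not pass it either. The values here are therefore those of the host RNAs.

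The isoforms of the hosts were examined next, and in Gas5 a minor spliced transcript passed the test. GENCODE M21 lists 25 transcripts of Gas5, 20 of them as retained-intron transcripts, which keep 1 or more introns in the RNA. Of the 73 annotated member transcripts, 50 were tested and 2 called, Malat1-201 and Gas5-217, a smaller share than the 16.6% called among all tested transcripts. DESeq2 called these and Gas5-218 (log2 fold change -0.30, adjusted p 0.037). Gas5-217, spliced from 8 exons to 430 bases, spanned 0.955 to 1.49 CPM over Control libraries and 1.59 to 3.09 CPM over Tardbp libraries. Its log2 fold change was 0.93 (SE 0.17; edgeR adjusted p 0.00111), and its share of Gas5 counts went from 0.00625 ± 0.00073 to 0.0122 ± 0.0022 (limma adjusted p 0.00332), the only member share with an adjusted p under 0.05 at any size, against 4.45% of all shares. Gas5-217 begins at 161034607, and it is 1 of 2 Gas5 transcripts that start inside Zbtb37: its first exon lies within that gene of the opposite strand (161002922 to 161034849). The kit does not mark strand, so reads of that exon and of Zbtb37 cannot be told apart. Zbtb37 had 5.47 CPM in Control gRNA and 4.53 CPM in Tardbp gRNA (log2 fold change -0.27, edgeR adjusted p 0.177).

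The main spliced form, Gas5-224, joins 12 exons into 502 bases. Its share of Gas5 counts spanned 0.181 to 0.248 over Control libraries and 0.211 to 0.307 over Tardbp libraries, a difference of 0.0441 (SE 0.013; limma adjusted p 0.0745). Its level went from 38.5 ± 3.98 to 45.4 ± 6.13 CPM (log2 fold change 0.24, SE 0.088, edgeR adjusted p 0.0817). The most abundant retained-intron form, Gas5-218, had a share of 0.165 ± 0.012 against 0.141 ± 0.020 (limma adjusted p 0.108). By the study's size threshold for isoform shares, a difference over 0.1 with an adjusted p under 0.05, 0 of 47 member shares in 6 genes were called with limma, against 0.63% of all shares, and 5 had an unadjusted p under 0.05.

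Summed over the 20 retained-intron transcripts, the share of Gas5 counts was 0.739 ± 0.022 in Control gRNA, from 0.703 to 0.78. In Tardbp gRNA it was 0.682 ± 0.039, from 0.621 to 0.728. The ranges overlapped only between 0.703 and 0.728, and the difference of -0.0575 had an exact permutation p of 0.00249 (n = 8 against 8, two-sided), or 0.00996 adjusted over the 4 hosts with such transcripts. Per unit of transcript length the shares were 0.611 ± 0.024 and 0.547 ± 0.041. For Snhg8, the single retained-intron transcript took 0.217 ± 0.032 and 0.174 ± 0.024 of the counts (difference -0.0427; exact permutation p 0.0107, n = 8 against 8, adjusted 0.0214). In the limma test over all transcript shares this same difference had an adjusted p of 0.104 and was not called. Snhg1 (0.449 ± 0.043 against 0.47 ± 0.055; exact permutation adjusted p 0.531) and Snhg5 (0.789 ± 0.045 against 0.773 ± 0.094; adjusted p 0.739) did not pass the test. These sums were chosen after the transcript values had been seen, and the retained-intron transcripts overlap the spliced ones over most of their length.

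**Figure D3:**
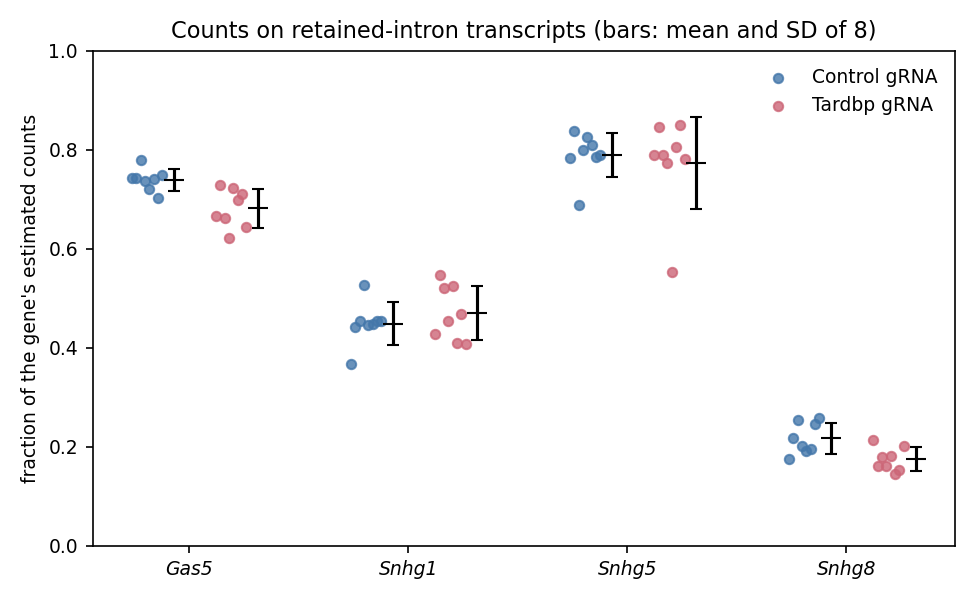
Fraction of each host's estimated counts on annotated retained-intron transcripts, by library, with bars for the mean and SD of 8. Gas5 (0.739 against 0.682) and Snhg8 (0.217 against 0.174) sit lower in Tardbp gRNA, while Snhg1 and Snhg5 overlap throughout.

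Psi was listed for 69 nodes in 7 members and for none in Mir17hg or Mir155hg. Of the 69 nodes, 4 differed by over 0.1 between the groups, against 4.7% of all 125520 nodes. The median size of the difference was 0.00323 over the member nodes and 0.00545 over all nodes. The 26 core exons were included at like levels, with a largest difference of 0.0198, and 24 of them had a Psi over 0.93 in Control gRNA. The lowest in Control gRNA was a Gas5 exon of 41 bases (161037124 to 161037164), at a Psi of 0.426 in Control and 0.445 in Tardbp libraries. Of the 9 retained-intron nodes, 8 had a lower Psi in Tardbp gRNA, and so did 44 of all 69 member nodes. The widest of the retained-intron differences were in Snhg8 (0.169 to 0.123) and Neat1 (0.941 to 0.9). No retained-intron node of Gas5 was listed, and the count of 8 was not tested.

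The 4 nodes past 0.1 were the alternative starts of Snhg12 and the alternative ends of Snhg8. At the start of Snhg12, a node of 15 bases (132308678 to 132308692) went from a Psi of 0.0919 with the control guide to 0.441 with the Tardbp guide. The node next to it (132308693 to 132308907) had 0.911 and 0.557. These 2 nodes are alternatives, so they carry 1 difference. None of the annotated Snhg12 transcripts starts at 132308693, so the transcript shares cannot show this difference. Each of the 7 tested shares of Snhg12 overlapped between the groups, and at a gene mean of 3.72 CPM the starts rest on few reads.

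At the 3' end of Snhg8, a node of 5 bases (123507552 to 123507556) went from a Psi of 0.282 with the control guide to 0.387 with the Tardbp guide, while the adjoining end (123507557 to 123507660) had 0.717 and 0.614. The starts of Snhg8 differed by less, from 0.8 to 0.882 for the upstream start. The largest differences in the other members were 0.0554 in Snhg5, 0.0448 in Gas5, 0.0404 in Neat1, 0.0312 in Snhg1 and 0.0239 in Malat1. The 2 sites are printed with the short node in capitals, at chr4:132308658-132308717 (plus strand) for Snhg12 and chr3:123507552-123507611 (minus strand) for Snhg8, both GRCm38. The 15 bases of Snhg12 begin within its pyrimidine run, and the Snhg8 ends lie just after a polyadenylation signal.
Snhg12 start: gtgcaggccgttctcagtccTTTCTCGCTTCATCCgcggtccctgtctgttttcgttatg
Snhg8 end: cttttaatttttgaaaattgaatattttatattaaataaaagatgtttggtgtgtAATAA

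**Figure D4:**
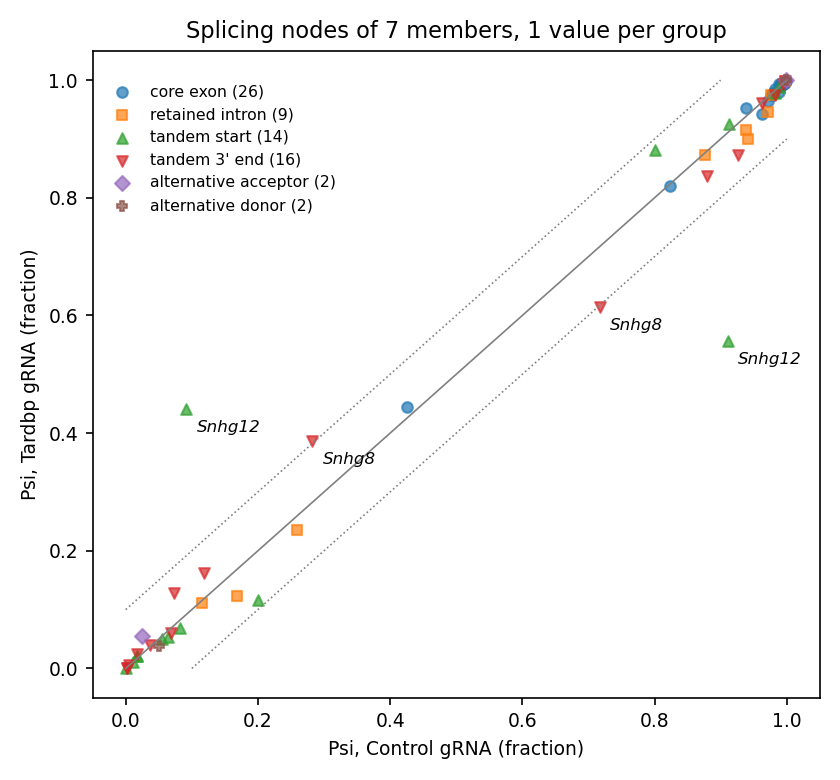
Psi of the 69 nodes in Control gRNA (horizontal axis) and Tardbp gRNA (vertical axis), as a fraction and 1 value per group, by node type, with dotted lines at a difference of 0.1. The pair of Snhg12 start nodes (0.0919 to 0.441 and 0.911 to 0.557) stands farthest from the diagonal, and the pair of Snhg8 ends lies at the dotted lines.

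The 2 microRNA hosts were listed at exactly 0 in some libraries while their other libraries held at least 246 counts. Such a 0 can be a failed estimate of the assembler rather than absent RNA, which the estimated counts alone cannot settle, so means and fold changes over all libraries are uncertain for both genes. Mir155hg (ENSMUSG00000097418.7, plus strand of chromosome 16, 84703167 to 84715245) was listed at 0 in the Control gRNA library numbered 3 and the Tardbp gRNA library numbered 5. Its other 7 Control libraries ranged from 5.88 to 8.96 CPM and its other 7 Tardbp libraries from 9.79 to 21.26 CPM, so 7 of 8 Tardbp libraries exceeded the highest Control library. Over all 16 libraries the log2 fold change was 1.19 (SE 0.66; 95% interval -0.19 to 2.56; adjusted p 0.149), which did not pass the test. Without the Tardbp gRNA library numbered 5 alone it was 1.35 (adjusted p 0.0312).

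In a fit without the 4 libraries in which either microRNA host was listed at 0, chosen after these values were seen, Mir155hg went from 7.41 ± 1.11 (SD, n = 7) to 17.4 ± 3.12 CPM (SD, n = 5). This fit also left out Mir155hg values of 21.26 and 9.79 CPM, in the Tardbp gRNA libraries numbered 4 and 8. These were the highest and the lowest of its Tardbp gRNA values above 0, so the Tardbp gRNA range in this fit was narrower. On the log2 scale Mir155hg rose by 1.23 in this fit (SE 0.13; edgeR adjusted p 1.83e-05), in which 35.7% of 17141 tested genes were called. Counts fell on Mir155hg-202 in most libraries, and on Mir155hg-201 in the Control gRNA library numbered 1 and partly in the Tardbp gRNA library numbered 4. With the letter M or F of each library as a covariate, over all 16 libraries, the value was 0.92 (adjusted p 0.294).

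Mir17hg (ENSMUSG00000089726.2, plus strand of chromosome 14, 115042879 to 115046727) was listed at 0 in the Tardbp gRNA libraries numbered 4 and 8. Its 8 Control libraries ranged from 2.69 to 4.85 CPM and its other 6 Tardbp libraries from 3.23 to 5.72 CPM, and 1 Tardbp library exceeded the highest Control library. The log2 fold change was -0.23 over all libraries (SE 0.62, adjusted p 0.793) and 0.21 without the libraries listed at 0 (SE 0.16, adjusted p 0.33), so its sign rested on those libraries.

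Related genes were then counted in lists, with the median log2 fold change of each list beside the median of 0.046 over all tested genes, of which 46.7% were called (23.5% higher and 23.3% lower). Among 11 tested noncoding snoRNA hosts besides the members, 5 rose and 0 fell, with a median of 0.21, and DESeq2 also called 5. The share called, 45.5%, was near that of all tested genes. The highest and lowest of the called were Snhg14 (1.27), the long host of the snoRNAs of the Prader-Willi region, Snhg10 (0.78), Snhg9 (0.30) and Snhg17 (0.27). Over all noncoding genes with a snoRNA gene in an intron, 8 of 24 tested rose and 3 fell (median 0.16), among them Gm11775 (1.15), AI506816 (-0.50) and Cct6a (-0.54), a chaperonin subunit gene that the annotation types as noncoding. Of 200 tested protein-coding genes with a snoRNA gene in an intron, 24 rose and 81 fell (median -0.11), including Dirc2 (1.18), Aven (0.69), Ltn1 (-1.02) and Pole (-1.04), the catalytic subunit of DNA polymerase epsilon. Of 2134 tested lncRNA genes of the annotation besides the members, 718 (33.6%) rose and 46 (2.16%) fell, with a median of 0.52.

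Of 12 paraspeckle protein genes, 9 fell (75% of the list, against 23.3% of all tested genes) and 0 rose, with a median log2 fold change of -0.34. The 9 included Rbm14 (-0.66; 221.6 ± 12.3 to 140.2 ± 14.9 CPM), which is needed to build paraspeckles, Smarca4 (-0.59), Hnrnpk (-0.25) and Dazap1 (-0.22). Of 18 genes of snoRNA-binding proteins and their assembly factors, 13 fell (72.2%) and 1 rose, with a median of -0.25. Nop58 (-0.82; 305.8 ± 34.0 to 173.4 ± 26.9 CPM), a core protein of box C/D snoRNPs, and Nolc1 (-0.70) fell most, Nufip1 fell by 0.15 on the log2 scale, and Nop10 (0.31), of box H/ACA snoRNPs, rose.

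Among 12 tested genes of microRNA processing and Argonaute complexes, 4 rose and 4 fell (33.3% each, against 23.5% and 23.3% of all tested genes), with a median of 0.063. Xpo5 (-0.80), which exports microRNA precursors from the nucleus, and Drosha (-0.56), which cuts primary microRNA transcripts, fell, while Tnrc6c (0.63), a partner of Argonaute proteins, and Prkra (0.53) rose. The other microRNA host genes all passed the test, 4 of 6 upward and 2 downward, and DESeq2 called 5. They included Mir22hg (1.38) and Mir142hg (2.67; 0 to 5.89 CPM over Control and 7.05 to 11.8 CPM over Tardbp libraries), Mcm7 (-0.65), a subunit of the replicative helicase, and Smc4 (-0.095). Mir142hg was also listed at 0 within Control gRNA, so the size of its fold change (SE 0.93; edgeR adjusted p 0.0243) is uncertain, as for the member microRNA hosts.

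Of 10 nonsense-mediated decay factors, which act on the spliced RNAs of several snoRNA hosts, 2 rose and 4 fell, from Upf1 (-0.55) and Smg8 (-0.37) to Smg1 (0.22) and Upf3b (0.29), with a median of 0.016, and these 20% and 40% compare with 23.5% and 23.3% of all tested genes. Of 7 tested other regulatory lncRNAs, 4 rose and 2 fell (median 0.25), led by Lncpint (1.07) and Jpx (0.67) upward and by Firre (-0.89) and Ftx (-0.36) downward. Among genes known as targets of miR-155, Socs1 (0.53), an inhibitor of cytokine signalling, rose and Inpp5d (-0.43), which encodes the phosphatase SHIP1, fell. Among known targets of the miR-17 to miR-92a cluster, Bcl2l11 (1.05; 15.6 ± 3.81 to 32.2 ± 4.34 CPM), which encodes the pro-apoptotic protein BIM, rose and Tgfbr2 (-0.31), a receptor for TGF-beta, fell.

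**Figure D5:**
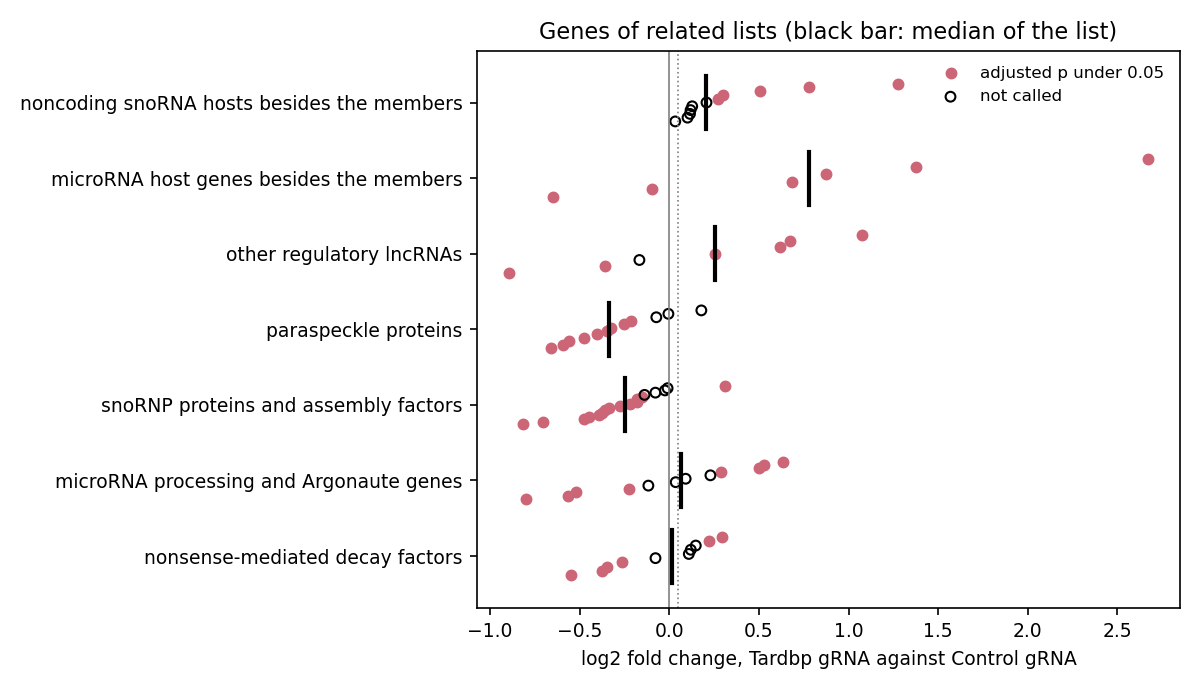
Log2 fold change, Tardbp gRNA against Control gRNA, of each tested gene in 7 lists, filled where edgeR's adjusted p was under 0.05, with a black bar for the list's median and a dotted line at the median of all tested genes (0.046). Paraspeckle proteins (median -0.34) and snoRNP proteins (-0.25) sit mostly below 0, and the noncoding snoRNA hosts (0.21) above it.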

How the data were processed

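The 16 libraries were prepared from sorted CD8+ T cell RNA with SMART-Seq v4 and Nextera XT. Per the labels, the authors used HISAT2 2.1.0 for alignment to mm10 and StringTie 2.1.0 for estimated counts of genes and transcripts. The deposited estimated counts are not normalized and include PCR copies. Psi is a fraction that the authors computed with Whippet per group, and which column belongs to which group was taken from the study's text. Their own difference and probability columns were not used, nor were 10 count columns that match no sample here. Lines without a gene name took up 0.0836 to 0.132% of counts and were left out. Names and coordinates are those of GENCODE M21 (GRCm38). The deposited lane annotation gives RNA concentration (a score without unit) and read pairs as a count. The letters M and F come from the deposited sample information, under the header sex. There were 3 M and 5 F in Control gRNA and 5 M and 3 F in Tardbp gRNA.

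Genes and transcripts were tested with edgeR 4.0.16 (quasi-likelihood, TMM, filterByExpr with minimum count 10, minimum total 15 and proportion 0.7, Benjamini-Hochberg adjusted p under 0.05, two-sided), with DESeq2 1.42.0 as an alternative. Log2 CPM used a prior count of 2. Transcript shares were tested with limma 3.58.1. Exact permutation tests used SciPy 1.17.1. The tests were tested on simulated data. The members, lists and related choices were made with earlier results of these data known. The rule for naming took the members, their transcripts with a mean of at least 1 CPM, up to 4 called genes of extreme fold change per list, and the 3 genes most like Neat1, Malat1 and Gas5. Of those transcripts only the ones a result turned on are described, and Mir155hg-201, below 1 CPM, was named after its values were seen. Library numbers were not treated as pairs in the main fit, and the sources used here do not say whether they pair the samples. Some members of the microRNA target lists are not reported here, so no counts are given for those lists.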

Additional observations from a re-analysis of the deposited data

Results flagged for a closer look

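Of 18 sets of 8 libraries (9 members in each group), 1 held a library far from the other 7, and chance alone flags about 1 set in 20. Mir155hg was listed at 0 CPM in the Control gRNA library numbered 3, while the other 7 Control libraries held 5.88 to 8.96 CPM. The gap to the nearest of them was 0.657 of the whole range, above Dixon's 95% critical value for 8 libraries. The 0 can be a failed estimate.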

How the results depend on the processing

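Malat1 rose past the threshold under every alternative run. The count of 1 called member became 2 with the replicate number as a block (Neat1 0.36, edgeR adjusted p 0.0229), 2 without the libraries listed at 0 (Mir155hg; chosen after seeing the data) and 1 to 2 with each library left out in turn (Neat1 without Control 3, Mir155hg without Tardbp 5). The block left 2 called transcripts and 0 called shares and called 7645 genes; deviations of same-numbered libraries correlated at -0.0048 to 0.16, and 2 of 8 libraries correlated best with their own number. With each library left out in turn, the log2 fold change of Gas5 ran from -0.038 to 0.036 and that of Snhg12 from -0.078 to 0.065. It was -0.024 for Gas5 with numbers 1 to 3 alone and 0.0040 for Snhg12 with numbers 4 to 8 alone. With RNA concentration as a covariate, Neat1 was at -0.47, Gas5 at -0.13 and Snhg12 at 0.00090, and 2697 genes were called in place of 7783. The concentrations do not overlap between the groups, so that fit cannot separate concentration from guide. Numbers 1 to 3 alone called 1696 genes. Mir17hg was at 0.21 without the libraries listed at 0. Of the member nodes, 2 in place of 4 passed a difference of 0.2. DESeq2 called 5 myeloid markers, counted in either direction, in place of 2 and 3 member transcripts in place of 2. The cause of these changes was not tested. Psi has no replicates, and low members such as Snhg12 and Mir17hg have wide intervals.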
